A study of Mus with 16 samples.

Results

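The expression of 10 genes that mark inhibitory neurons was examined in mouse forebrains lacking 1 or all functional copies of *Kdm5c*, the X-linked gene of a histone H3K4 demethylase. The genes were chosen by their Ensembl identifiers, and all 10 were found among the 54219 genes of the count table. Bulk poly(A) RNA-seq was performed on cortices and hippocampi of 16 mice at P6, with 4 animals in each of 4 groups. The groups were wild-type (WT) males, hemizygous *Kdm5c* knockout males (*Kdm5c*-KO), WT females, and heterozygous females (*Kdm5c*-HET). The knockout allele had been made by Cre-mediated deletion of coding exons, and the mice carried a mixture of the strains C57BL/6J and 129S1/SvImJ. All 4 groups shared that background, and no animal received a treatment. The male mutants have no intact copy of the gene, whereas the female mutants have 1 intact and 1 deleted copy.

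Each animal's label ends in the letter D or E, which the labels do not explain. Among WT animals, 1 of 4 males and 2 of 4 females carry the letter E, and among mutants, 2 of 4 *Kdm5c*-KO males and 3 of 4 *Kdm5c*-HET females do. The study's methods describe RNA isolation, library preparation, and sequencing as a single batch, and the animals as coming from several litters. Which animal came from which litter is not given in the sources used here. The total count per animal was between 21513783 and 30063352, with 22750335 to 30063352 among the 8 animals of letter D and 21513783 to 27833185 among the 8 of letter E.

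Inhibitory neurons of the forebrain make γ-aminobutyric acid (GABA) from glutamate with the glutamate decarboxylases GAD67 and GAD65 and load it into synaptic vesicles with a dedicated transporter. Cortical and hippocampal interneurons are born in the ganglionic eminences of the ventral forebrain, where homeobox genes of the Dlx family act in their specification and migration. They then settle among the excitatory neurons and divide into classes, which are recognised by calcium-binding proteins and neuropeptides. In bulk tissue, fewer cells of a type cannot be told apart from less RNA per cell.

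The members fall into 3 roles. *Gad1* (ENSMUSG00000070880, GAD67), *Gad2* (ENSMUSG00000026787, GAD65), and *Slc32a1* (ENSMUSG00000037771, the vesicular GABA transporter) make and package the transmitter. *Dlx1* (ENSMUSG00000041911), *Dlx2* (ENSMUSG00000023391), *Dlx5* (ENSMUSG00000029755), *Dlx6* (ENSMUSG00000029754), and *Lhx6* (ENSMUSG00000026890) encode homeodomain transcription factors, of which *Lhx6* acts in interneurons from the medial ganglionic eminence. *Calb2* (ENSMUSG00000003657, calretinin) and *Pvalb* (ENSMUSG00000005716, parvalbumin) encode calcium-binding proteins that mark classes of interneurons.

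On GRCm38.p6 (mm10), 6 of the 10 genes lie on chromosome 2. *Dlx1* (chr2:71528113-71533981) and *Dlx2* (chr2:71543408-71546754) are neighbours with 9426 bases between them, as are *Dlx6* (chr6:6863334-6867970) and *Dlx5* (chr6:6877801-6882068) with 9830 bases between them. *Gad1* lies at chr2:70561303-70602014, *Gad2* at chr2:22621015-22693877, *Slc32a1* at chr2:158607260-158615747, and *Lhx6* at chr2:36081950-36105992. *Calb2* lies at chr8:110142526-110168212 and *Pvalb* at chr15:78191112-78206400. The RefSeq annotation places *Gad1os* over part of *Gad1*, *Mir3967* over part of *Gad2*, *Gm14204* over part of *Slc32a1*, *Dlx1as* over part of *Dlx1*, and *Dlx6os1* and *Dlx6os2* over *Dlx6*. The strand setting of the counting is not given in the sources used here, so the counts of these 5 members are uncertain where another gene overlaps them.

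Of the 10 members, 9 passed the filter on low counts and were among the 17866 genes tested. *Pvalb* did not pass. It had 4, 0, 1, and 1 counts in WT males, 2, 1, 1, and 3 in *Kdm5c*-KO males, 5, 2, 2, and 0 in WT females, and 5, 9, 3, and 3 in *Kdm5c*-HET females. Parvalbumin RNA was thus at or near the limit of detection in all groups, and no fold is given for it. The other 9 members had at least 98 counts in every animal. Levels are counts scaled to a common library size after TMM normalization (CPM) and are compared between animals for 1 gene at a time, since the values are not scaled by transcript length.

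**Figure D1:**
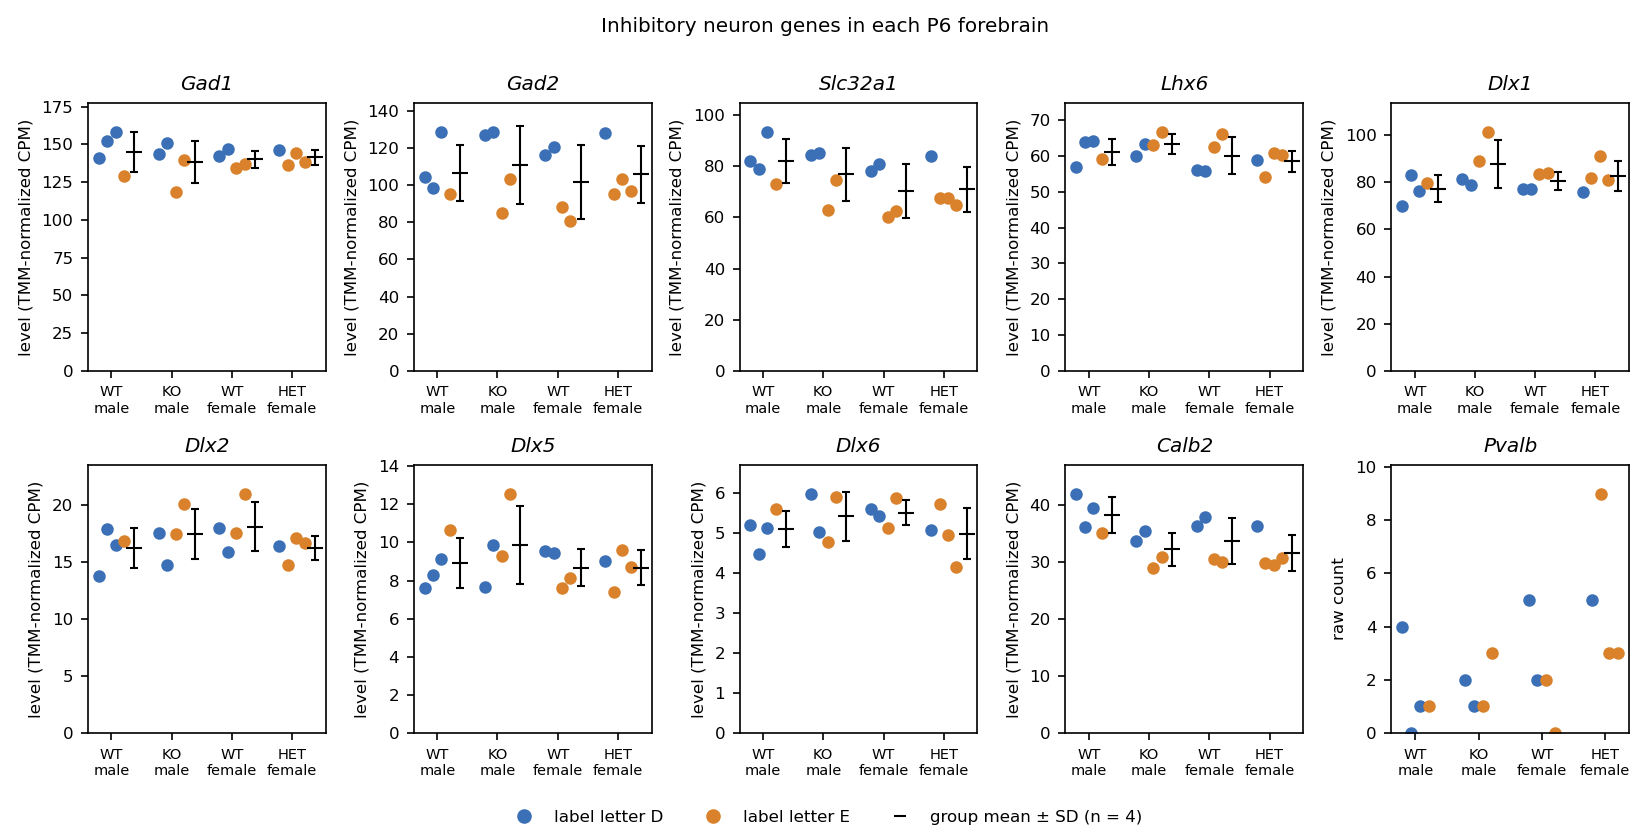
Level of each member (vertical axis, TMM-normalized CPM, or the raw count for *Pvalb*) in the 16 forebrains by group (horizontal axis), with points coloured by the letter of the label and the group mean ± SD (n = 4) in black for all but *Pvalb*. The 4 groups overlap for all 9 measurable members, while *Slc32a1* is between 78.0 and 93.5 CPM in letter D and between 60.2 and 74.8 CPM in letter E.

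The first question was whether loss of *Kdm5c* changes these genes in males. No measurable member was a DEG (edgeR, adjusted p-value q under 0.1): 0 of 9 passed, beside 5.24% of all genes tested, and DESeq2 also called 0. At an unadjusted p under 0.05 in edgeR, 2 of 9 members passed, *Dlx1* and *Calb2*, which is near the 16.5% of all genes that did. The median Log2FC of the 9 members was 0.06, beside -0.01 for all genes. The 9 members comprised 6 positive and 3 negative Log2FC values.

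The genes of GABA synthesis and packaging did not separate the male groups. *Gad1* averaged 144.9 ± 13.0 CPM without the deletion and 138.3 ± 13.9 CPM with it (SD, n = 4 males each). Its Log2FC was -0.07 (SE 0.07, edgeR q = 0.673). *Gad2* was at 104, 98.4, 129, and 95.4 CPM in WT males and at 127, 129, 84.7, and 103 CPM in *Kdm5c*-KO males. Its Log2FC was 0.06 (SE 0.14, edgeR q = 0.892), with a 95% interval from -0.23 to 0.35. Both groups of males thus held high and low animals for *Gad2*. With the letter as a covariate its Log2FC was 0.14 (SE 0.07, 95% interval -0.0023 to 0.29, edgeR q = 0.287), and without the letter it was negative when *Kdm5c*-KO male 4D (-0.01) or 6D (-0.02) was left out. For *Slc32a1* the Log2FC was -0.09 (SE 0.11, edgeR q = 0.743), and the interval ran from -0.32 to 0.13. With the letter as a covariate it was -0.02 (SE 0.05, edgeR q = 0.920). Without *Kdm5c*-KO male 2E the Log2FC was -0.01 for *Slc32a1* and -0.0013 for *Gad1*, and over all 16 fits that left out 1 animal it reached -0.14 and -0.12.

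Among the transcription factors, *Dlx1* had the largest Log2FC in males. It was at 69.8, 83.2, 76.4, and 79.8 CPM in WT males and at 81.5, 78.7, 89.0, and 101 CPM in *Kdm5c*-KO males. The ranges overlapped, with 2 *Kdm5c*-KO males below the highest WT male. The Log2FC was 0.18 (SE 0.07, 95% interval 0.03 to 0.33, edgeR q = 0.213, unadjusted 0.0222), and the exact permutation test over animals gave p = 0.143. *Dlx2* (0.11, edgeR q = 0.665), *Dlx5* (0.15, edgeR q = 0.654), *Dlx6* (0.09, edgeR q = 0.767), and *Lhx6* (0.05, edgeR q = 0.729) had positive Log2FC values that did not pass the test. The 95% intervals of these 4 genes all included 0, and that of *Dlx5* was the widest, from -0.14 to 0.43. Single animals moved these values. Without *Kdm5c*-KO male 3E, the Log2FC was 0.10 for *Dlx1*, 0.03 for *Dlx2*, 0.01 for *Dlx5*, 0.05 for *Dlx6*, and 0.03 for *Lhx6*. Over the 16 fits that left out 1 animal, it ran from 0.10 to 0.23 for *Dlx1*, from 0.03 to 0.18 for *Dlx2*, from 0.01 to 0.25 for *Dlx5*, from 0.04 to 0.15 for *Dlx6*, and from 0.02 to 0.08 for *Lhx6*. The lowest values came without 3E for *Dlx1*, *Dlx2*, and *Dlx5*, without WT male 5D for *Dlx6*, and without WT male 2D for *Lhx6*.

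*Calb2* was the member nearest to the threshold in males. It was at 42.0, 36.2, 39.4, and 35.0 CPM in WT males and at 33.7, 35.4, 28.9, and 30.8 CPM in *Kdm5c*-KO males. A single *Kdm5c*-KO male, 6D, lay above the lowest WT male, 1E, and the other 3 lay below every WT male. The group means were 38.2 ± 3.15 and 32.2 ± 2.91 CPM (SD, n = 4 each). The Log2FC was -0.24 (SE 0.09, 95% interval -0.43 to -0.06, edgeR q = 0.156, unadjusted 0.0120). The exact permutation test gave p = 0.0571, where 4 animals against 4 cannot give less than 0.0286.

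The groups of males differ in the letter, and *Calb2* moved with it. Within letter D the WT males were at 36.2 CPM or more and the *Kdm5c*-KO males at 35.4 CPM or less. Within letter E the only WT male was at 35.0 CPM and the *Kdm5c*-KO males at 28.9 and 30.8 CPM. Among the 9 members, only *Calb2* had all *Kdm5c*-KO males below the WT males within both letters. That 1 of 9 is near the 8.62% of all genes tested that did so. The split by letter was looked at after the values were seen. With the letter as a covariate the Log2FC was -0.18 (SE 0.05, 95% interval -0.30 to -0.07), and *Calb2* passed the threshold (edgeR q = 0.0477), as did 3.42% of all genes as lower in *Kdm5c*-KO males in that model. The call rested on single animals. In the model with the letter, leaving out WT male 2D gave q = 0.143, *Kdm5c*-KO male 4D 0.159, WT male 1E 0.201, and *Kdm5c*-KO male 2E 0.103. The lowest q was 0.0186, without WT male 5D. In the model without the letter, of the 16 fits that left out 1 animal, *Calb2* passed only in that without *Kdm5c*-KO male 6D (edgeR q = 0.0928), and so did *Dlx1* (edgeR q = 0.0958). *Calb2* was lower in *Kdm5c*-KO males in each of these fits.

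**Figure D2:**
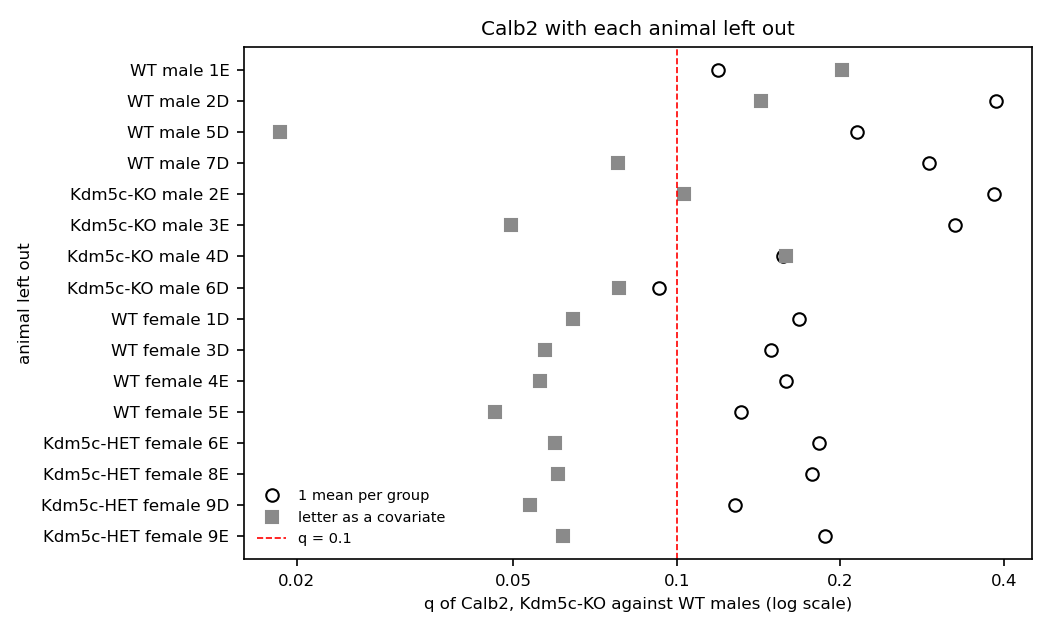
The q of *Calb2* for *Kdm5c*-KO against WT males (horizontal axis, log scale) with each of the 16 animals left out in turn (vertical axis), for edgeR with 1 mean per group (open circles) and with the letter as a covariate (squares), and the threshold as a dashed line. The squares range from 0.0186 to 0.201, and 4 of the 16 lie above the threshold, while 1 of the 16 circles lies below it.

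In females, the members of *Kdm5c*-HET and WT animals lay close together. No member passed the test (0 of 9, beside 0.509% of all genes), no member had an unadjusted p under 0.05, and DESeq2 called 0. The Log2FC values ran from -0.15 for *Dlx2* (SE 0.10, edgeR q = 0.933) to 0.06 for *Gad2* (SE 0.14, edgeR q = 0.995), with a median of 0.00. With 1 animal left out, *Dlx2* ran from -0.22 to -0.08, *Gad2* from -0.05 to 0.15, and *Calb2* from -0.17 to -0.04. No member was called in any of these 16 fits. *Calb2* was at 36.2, 37.9, 30.6, and 30.0 CPM in WT females and at 36.3, 29.9, 29.5, and 30.8 CPM in *Kdm5c*-HET females, a Log2FC of -0.09 (SE 0.09, 95% interval -0.28 to 0.09, edgeR q = 0.972). *Dlx1* was at 77.0, 77.1, 83.5, and 83.9 CPM in WT females and at 75.9, 81.7, 91.2, and 81.1 CPM in *Kdm5c*-HET females, which overlap. *Slc32a1* had its highest female value, 84.0 CPM, in the *Kdm5c*-HET female 9D, the only animal of letter D in its group. *Gad2* was at 116, 121, 88.3, and 80.6 CPM in WT females and at 128, 95.1, 103, and 96.8 CPM in *Kdm5c*-HET females. Within each letter, every *Kdm5c*-HET female was above every WT female for *Gad2* and for *Slc32a1*, 2 of 9 members, beside 6.17% of all genes tested. This split was also looked at after the values were seen, and letter D holds a single *Kdm5c*-HET animal. With the letter as a covariate the Log2FC was 0.17 for *Gad2* (SE 0.07, 95% interval 0.02 to 0.31, edgeR q = 0.505) and 0.09 for *Slc32a1* (SE 0.05, edgeR q = 0.699), neither of which passed.

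The male and female effects were then compared directly. The sex by genotype interaction called 0 of 9 members with edgeR, beside 0.0392% of all genes, and 0 with DESeq2, and no member had an unadjusted p under 0.05. The interaction term was largest for *Dlx2*, at 0.26 (SE 0.14, 95% interval -0.04 to 0.56, edgeR q = 0.788), where the Log2FC was 0.11 in males and -0.15 in females. For *Calb2* it was -0.15 (SE 0.12, 95% interval -0.41 to 0.11, edgeR q = 0.876). An effect on *Calb2* in 1 sex that is absent in the other was therefore not shown.

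WT females and WT males did not differ in any member by edgeR either, with 0 of 9 called beside 5% of all genes, 0 at an unadjusted p under 0.05, and 0 by DESeq2. For *Slc32a1* the mean was 81.9 ± 8.60 CPM in the males and 70.4 ± 10.6 CPM in the females (SD, n = 4 each). The Log2FC was -0.22 (SE 0.11, edgeR q = 0.302, exact permutation p = 0.171). *Calb2* differed by -0.18 (SE 0.09, edgeR q = 0.293, exact permutation p = 0.171). WT females comprise 2 animals of letter E and WT males 1, and with the letter as a covariate these Log2FC values were -0.15 for *Slc32a1* (edgeR q = 0.120) and -0.12 for *Calb2* (edgeR q = 0.190).

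The largest differences among the members followed the letter of the label. Genes of GABA synthesis and packaging and *Calb2* were lower in animals of letter E, and *Dlx1* was higher. In edgeR with 1 mean per group and the letter, 5 of 9 members passed the threshold. Of these, 4 were lower in letter E, beside 12% of all genes, and 1 was higher, beside 11.6% of all genes. DESeq2 called 5 as well. The median absolute Log2FC was 0.14 for the members and 0.10 for all genes.

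**Figure D3:**
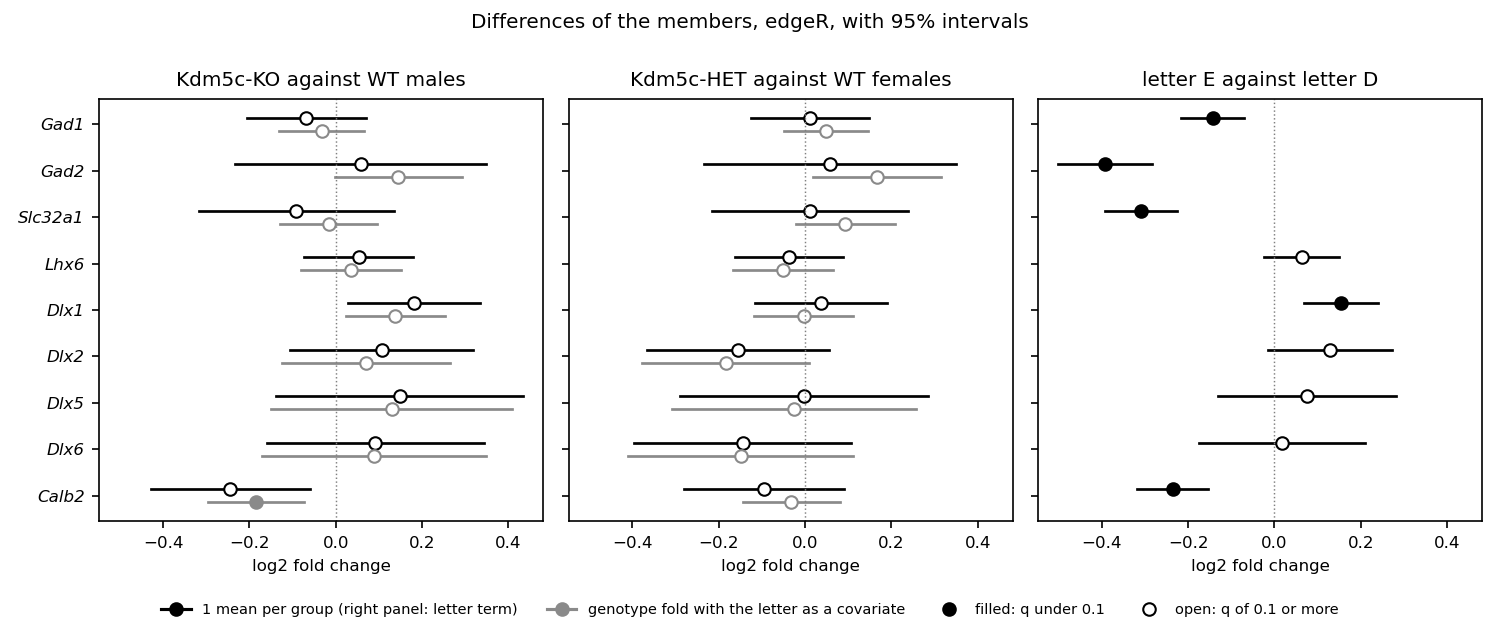
Log2FC (horizontal axis, with 95% intervals) of the 9 measurable members (vertical axis) for *Kdm5c*-KO against WT males, *Kdm5c*-HET against WT females, and letter E against D, without the letter (black) and with it as a covariate (grey), filled where q is under 0.1. In the genotype panels the only filled point is *Calb2* in males with the letter as a covariate, while 5 points are filled in the letter panel.

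*Gad2* differed the most. It was at 98.4 to 129 CPM (median 124) in letter D and at 80.6 to 103 CPM (median 95.2) in letter E, a Log2FC of -0.39 (SE 0.05, edgeR q = 1.73e-05). The ranges overlapped through the WT male 5D, the lowest animal of letter D.

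*Slc32a1* separated the letters without overlap. The 8 animals of letter D were at 78.0 to 93.5 CPM (median 82.9) and the 8 of letter E at 60.2 to 74.8 CPM (median 66.2). Of all genes tested, 2.01% had every animal of letter E below every animal of letter D. The Log2FC was -0.31 (SE 0.04, edgeR q = 1.27e-05).

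*Gad1* had the smallest of the 4 decreases. It was at 141 to 158 CPM (median 147) in letter D and at 119 to 144 CPM (median 137) in letter E, a Log2FC of -0.14 (SE 0.04, edgeR q = 0.00666). *Calb2* was at 33.7 to 42.0 CPM (median 36.3) in letter D and at 28.9 to 35.0 CPM (median 30.3) in letter E, a Log2FC of -0.24 (SE 0.04, edgeR q = 0.000228).

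The direction held inside every group. For *Gad1*, *Gad2*, *Slc32a1*, and *Calb2*, the animals of letter E were below those of letter D within all 4 groups, as were 5.3% of all genes tested. An exact permutation test of the letters within groups gave p = 0.00174 for each of these 4 genes, the smallest that its 576 arrangements allow. The letter accounted for 81.9% of the spread within groups for *Calb2*, 80.6% for *Slc32a1*, 74.8% for *Gad2*, and 53.3% for *Gad1*.

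*Dlx1* moved the other way. It was at 69.8 to 83.2 CPM (median 77.1) in letter D and at 79.8 to 101 CPM (median 83.7) in letter E, a Log2FC of 0.15 (SE 0.04, edgeR q = 0.0114, exact permutation p = 0.0122). The animals of letter E were above those of letter D in 3 of the 4 groups, and in WT males they were not. The other transcription factors did not pass the test. *Lhx6* differed by 0.06 (edgeR q = 0.336), *Dlx2* by 0.13 (edgeR q = 0.227), *Dlx5* by 0.08 (edgeR q = 0.660), and *Dlx6* by 0.02 (edgeR q = 0.926). The letter accounted for 48.9% of the spread within groups for *Dlx1*, 19.6% for *Dlx2*, 14.0% for *Lhx6*, 3.08% for *Dlx5*, and 0.243% for *Dlx6*. The 5 called members kept q under 0.1 in all 16 fits that left out 1 animal.

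**Figure D4:**
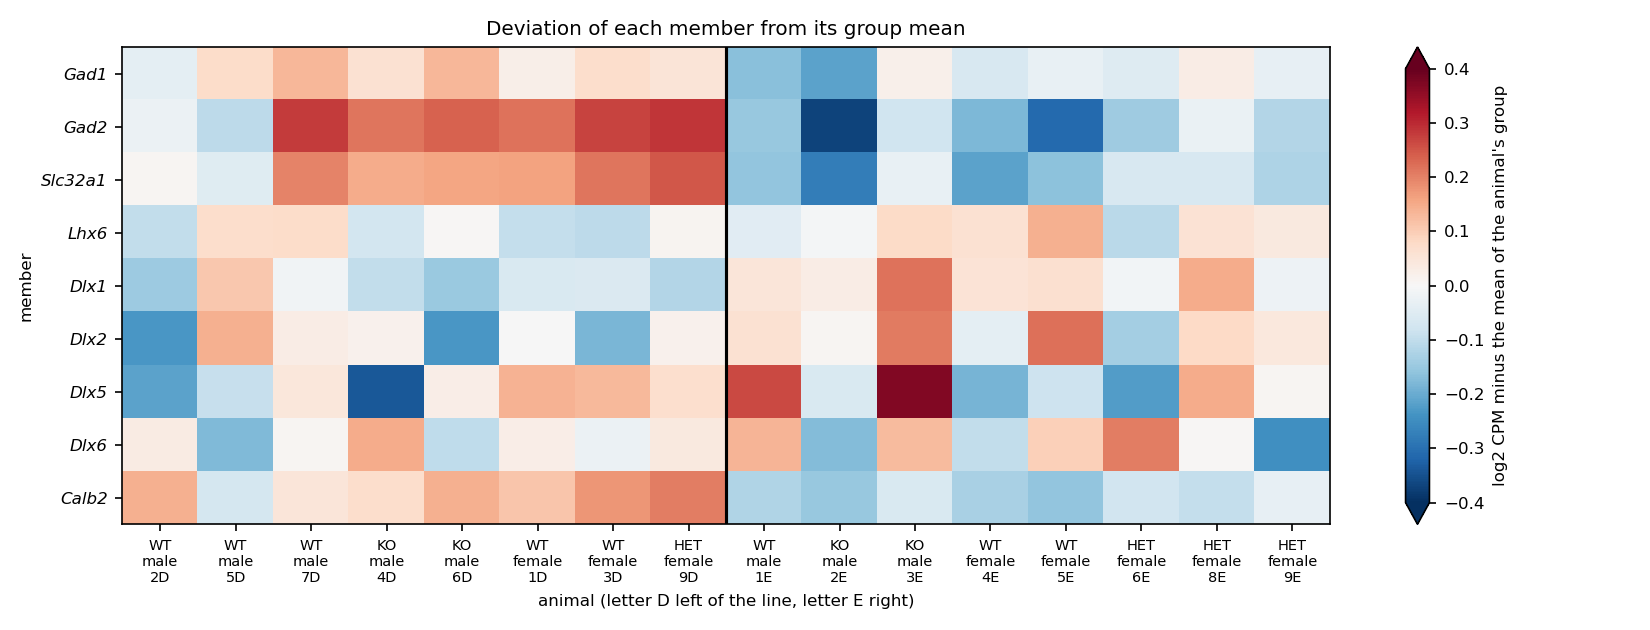
Deviation of each member from the mean of the animal's group (colour, log2 CPM) for the 9 measurable members (vertical axis) in the 16 animals (horizontal axis), with letter D left and letter E right of the line. *Gad2*, *Slc32a1*, and *Calb2* are mostly above their group means in letter D and below them in letter E, *Dlx1* is mostly the reverse, and *Dlx5* and *Dlx6* show no such split.

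Ratios of raw counts within an animal, which do not depend on the scaling between libraries, were also compared between the letters. The ratios were not among the planned tests and pair members already called by letter, so they are not separate evidence of a letter difference. The ratio of *Gad2* to *Gad1* was 0.648 to 0.884 (median 0.818) in letter D and 0.588 to 0.741 (median 0.708) in letter E (exact permutation within groups, p = 0.00694). The ratio of *Slc32a1* to *Gad1* was 0.519 to 0.590 in letter D and 0.449 to 0.568 in letter E (exact permutation, p = 0.00694). The ratio of *Dlx1* to *Slc32a1* was 0.816 to 1.05 in letter D and 1.09 to 1.41 in letter E, without overlap (exact permutation, p = 0.00174). That split follows from the opposite directions of *Dlx1* and *Slc32a1* given above. The ratios of *Calb2* to *Gad1* (exact permutation, p = 0.128) and of *Gad2* to *Slc32a1* (exact permutation, p = 0.0556) did not pass p = 0.05. The members thus differed unequally between the letters, *Gad2* and *Slc32a1* more than *Gad1*.

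Pairs of members were compared across animals to see which vary together. With group means removed, 10 of the 36 pairs had a correlation with an adjusted permutation p under 0.1 over the 36 pairs, 9 positive and 1 negative. With the means of the letters removed as well, the count was 0 of 36. That test permuted animals only within group and letter, with 576 arrangements, so its count is not directly comparable with the first. Since the animals cluster by letter, correlations are given only with the letter removed and within each letter. *Gad2* and *Slc32a1* had r = 0.887 (exact permutation p = 0.0642, adjusted 0.385) and rho = 0.865 (exact permutation p = 0.0312, adjusted 0.225) over 16 animals, with r = 0.978 within letter D and 0.795 within letter E, and r = 0.801 without the 2 animals farthest from the median, which were chosen for each pair on its own. *Dlx1* and *Dlx2* had r = 0.684 (exact permutation p = 0.0104, adjusted 0.188) and rho = 0.691 (exact permutation p = 0.0104, adjusted 0.188), with 0.771 within letter D and 0.598 within letter E, and r = 0.539 without 2 animals. *Gad1* and *Lhx6* had r = 0.623 (exact permutation p = 0.00521, adjusted 0.188) and rho = 0.682 (exact permutation p = 0.00347, adjusted 0.125), with 0.658 and 0.599 within the letters, and r = 0.628 without 2 animals. None of these passed the adjustment.

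Genes were also ranked by how closely their deviations from the group means followed those of the mean of the 4 Dlx members across the 16 animals. The first in rank were ENSMUSG00000090063 and ENSMUSG00000027422, with r = 0.892 and 0.845 once the letter was removed. The ranking itself did not remove the letter, and ENSMUSG00000090063 was higher in letter E (Log2FC 0.25, edgeR q = 0.0469). The symbols of the 10 genes first in rank are not paired with identifiers in the sources used here. Ranked with the letter removed, *Ethe1* (r = 0.851) and *Smoc1* (r = 0.846) were among the first 10. These correlations are descriptions over animals that share library preparation.

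Other genes of the interneuron lineage could be followed only where the study's list of changed genes pairs a symbol with an identifier. This held for 4 of 53 genes in 3 lists. All 4 had been selected by the study on these samples, so their direction in males is not independent evidence. None of the list of GABA synthesis, transport, and breakdown had an identifier. Among lineage transcription factors, *Sp9*, a zinc finger factor of ganglionic eminence progeny, was the 1 gene measured, and it was higher in *Kdm5c*-KO males (Log2FC 0.44, SE 0.10, edgeR q = 0.0186). Of the 3 subtype markers, *Htr3a*, a serotonin receptor subunit of interneurons from the caudal ganglionic eminence, was higher (0.56, SE 0.16, edgeR q = 0.0705). *Vip*, a neuropeptide of interneurons, was lower (-0.59, SE 0.15, edgeR q = 0.0349), as was *Elfn1*, a synaptic adhesion protein of interneurons (-0.19, SE 0.06, edgeR q = 0.0987). None of the 4 passed in *Kdm5c*-HET females. By letter, *Vip* (-0.28, edgeR q = 0.0483) and *Elfn1* (-0.14, edgeR q = 0.00711) were lower in letter E, and *Sp9* (edgeR q = 0.431) and *Htr3a* (edgeR q = 0.275) did not pass.

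Some markers of other cells and regions differed by letter or by male genotype too. An identifier was paired with 11 of 71 markers in 8 lists, all selected by the study on these samples, so these lists were read only in part, and 9 are given here. Of these 9, 5 were lower and 0 higher in letter E, where 23.6% of all genes passed in either direction. In *Kdm5c*-KO males 6 were lower and 1 higher in the model without the letter, where 5.24% of all genes passed. Because the study had selected these markers as changed on the same samples, the male count is not independent evidence. It cannot be read against that share. The cortical excitatory markers *Emx1* and *Cux2* were present in every animal and did not pass by letter (edgeR q = 0.887 and 0.620). *Emx1* was at 29.2 to 41.0 CPM in letter D and 27.4 to 35.2 CPM in letter E, and *Cux2* at 131 to 174 CPM and 131 to 166 CPM. The choroid plexus markers *Ttr* and *Aqp1* summed to 2.23 to 205 CPM in letter D and 1.48 to 86.6 CPM in letter E, and both were lower in letter E (edgeR q = 0.0910 and 0.00447). The glial marker *Aqp4* was at 142 to 170.5 CPM in letter D and 120.3 to 152 CPM in letter E, and it was lower in letter E (edgeR q = 0.000214). *Rora*, of the thalamic and hypothalamic list, was at 26.5 to 35.0 CPM and 22.3 to 28.6 CPM and was lower in letter E (edgeR q = 0.000568), as was *Cdhr1* of the olfactory list, at 19.4 to 33.8 CPM and 13.5 to 25.5 CPM (edgeR q = 0.0810). The blood markers *Hbb-bs* and *Hba-a1* did not pass by letter and summed to 76.6 to 133 CPM and 60.2 to 108 CPM. No striatal or Cajal-Retzius marker had an identifier. The part of these cells and regions in the letter differences of the members was not tested.

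Beside the lower *Calb2* values of *Kdm5c*-KO males, the choroid plexus markers summed to 1.48 to 205 CPM in WT males and 1.98 to 2.82 CPM in *Kdm5c*-KO males, and the blood markers to 107 to 133 CPM and 60.2 to 97.8 CPM. *Aqp4* was at 149 to 167 CPM in WT males and 120.3 to 145 CPM in *Kdm5c*-KO males. *Emx1* was at 34.4 to 41.0 CPM and 29.2 to 33.0 CPM, and *Cux2* at 151 to 174 CPM and 131 to 139 CPM. *Rora* was at 27.3 to 35.0 CPM and 22.3 to 30.1 CPM, and *Cdhr1* at 19.4 to 22.8 CPM and 24.0 to 33.8 CPM. Of these, *Aqp4* (edgeR q = 0.115) and *Rora* (edgeR q = 0.103) did not pass in males in the model without the letter. In the model with the letter, which called *Calb2*, both passed as lower, where 8.22% of all genes passed in either direction. Both had been selected by the study on these samples, so this is not independent evidence. Their Log2FC values there were -0.19 (edgeR q = 0.0154) and -0.24 (edgeR q = 0.0235). *Cdhr1* was higher in that model (0.51, edgeR q = 0.00373). The part of these markers in the *Calb2* values was not tested.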

How the data were processed

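Poly(A) RNA of 16 P6 forebrains was sequenced by the authors as paired-end reads from a directional kit. Per the study's methods and the submitters' processing notes, reads were mapped to mm10 with STAR 2.5.3a, duplicates were removed, uniquely mapped reads were kept, and genes were counted with featureCounts (Subread 1.5.0). The authors deposited raw counts as whole numbers for 54219 Ensembl genes. Here, counts were filtered by filterByExpr (17866 genes), normalized by TMM, and fitted by edgeR 4.0.16 (R 4.3.3) glmQLFit, with a mean for each group and a spread shared by the 16 animals. Contrasts were tested by glmQLFTest with Benjamini-Hochberg adjustment over all genes tested, and q under 0.1 was called. The letter was tested in a fit with groups and letter. Single members were compared on log2 CPM (prior count 2) by exact two-sided permutation tests over animals. The totals were 21513783 to 30063352 counts per animal, and low counts limit precision mainly for *Pvalb* and the low Dlx members.

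Within groups, the chi-square statistic per gene over the 24 pairs of animals was 2.85 to 14.8, so no pair of libraries looked like copies. Pairs of members were tested over 36 pairs, because *Pvalb* did not pass the filter, with 100000 permutations within groups or, with the letter removed, the exact 576 arrangements. The alternatives were DESeq2 1.42.0, DESeq2's size factors, no filter, at least 10 counts in every animal, q under 0.05, only 1 sex, the letter as a covariate, and leaving out each animal. Leaving out animals in the model with the letter, and the levels within each letter, were added after the values were seen. The ratios of counts were not among the planned tests either. On simulated counts with 200 genes changed by 0.3 on the log2 scale between male groups, edgeR recovered 45.5% with 12.5% false calls (17612 genes), and DESeq2 50.5% with 19.8% false calls. The simulated spread was estimated with the letter fitted, and no letter difference was simulated. The male test leaves the letter in the spread, so these shares do not carry over to members that differ by letter.

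The members and lists were chosen with earlier results of these data known. The genes named are the 10 members, list genes with q under 0.1 (at most 5 per list and contrast), and the genes most like the Dlx mean. Symbols of other genes come from the study's table of changed genes (1014 identifiers), and positions from RefSeq, matched by symbol for all 10 members. *Kdm5c* has no identifier paired with it there and is not analysed here. Of the other-cell markers with an identifier, 2 are not reported here.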

Additional observations from a re-analysis of the deposited data

Results flagged for a closer look

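*Slc32a1* in the *Kdm5c*-HET female 9D was at 84.0 CPM, far from the other 3 animals of its group, which were at 64.8 to 67.6 CPM. The gap to the nearest animal was 0.854 of the range of the group, above Dixon's 95% critical value for 4 samples. Chance alone gives about 1 in 20 such groups, and this was 1 of 40 groups looked at (10 members in 4 groups). The animal is the only 1 of letter D in its group, and in the other groups letter D held *Slc32a1* levels of 78.0 to 93.5 CPM.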

How the results depend on the processing

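The 5 members called by letter were called under every alternative run. No called member changed sign. The sign of an uncalled value changed in 2 of all 223 values (called and uncalled) in males, 16 of 207 in *Kdm5c*-HET females, 10 of 198 in the interaction, 7 of 198 between WT females and WT males, and 6 of 189 by letter. In males, 0 members were called in the fit without the letter; without a filter on low counts 2 were, *Dlx1* (q = 0.0529) and *Calb2* (q = 0.0506), beside 3.62% of all genes in that fit, and with the letter as a covariate 1 was, *Calb2* (q = 0.0477), beside 8.22% of all genes. Leaving out each animal gave 0 to 2 members called in males, with 2 only without *Kdm5c*-KO male 6D, where 6.21% of all genes were called. DESeq2 called none in males (*Calb2* q = 0.119, *Dlx1* q = 0.188). For WT females against WT males, no filter gave 1 call, *Slc32a1* (Log2FC -0.21, q = 0.0469), beside 3.67% of all genes. The cause of these differences was not tested. In *Kdm5c*-HET females and in the interaction, 0 members were called under every alternative. The count of correlated member pairs was 10 with 3 of the 4 settings and 0 with the letter means removed, where the permutation was also narrower. No paired analysis was possible because a number and a letter together name each animal in the labels, and no such name occurs in more than 1 group. Number 2 alone is shared by WT and *Kdm5c*-KO males, none by WT and *Kdm5c*-HET females, and numbers 1 and 5 by WT females and WT males, each time under different letters, so a shared number was not taken as a pair. The letter, which all groups share, is the covariate above.

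Each group held only 4 animals. In males, in the fit without the letter, 95% intervals of Log2FC exceeded 0.3 in size for all 9 tested members but *Gad1* and *Lhx6*. There, a difference of that size in at least 1 direction lies within the error. With the letter as a covariate, only the intervals of *Dlx5* (up to 0.41) and *Dlx6* (up to 0.35) exceeded 0.3. *Pvalb* could not be tested, with at most 9 counts in any animal. The letters are spread unevenly over the groups, and what they mark is not known from the labels.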
